A study of Mus musculus with 225 samples.

Results

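The proteasome is the large protease that degrades proteins tagged with ubiquitin. Its 20S core is a barrel of alpha and beta rings, with the proteolytic sites on the inner face of the beta rings. The 19S cap consists of a ring of ATPases, which unfold and thread the substrate, and of non-ATPase subunits that bind and remove ubiquitin, while other activators can take the place of the cap. All of the core and cap subunits are needed in every dividing cell, and the particle contains them in fixed proportions.

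The subunit genes were taken by symbol, as every gene whose name consists of Psma, Psmb, Psmc, Psmd or Psme and a number. This gave 39 of the 10948 genes in the normalized expression table and 43 of the 23165 genes in the raw counts. The 4 genes outside the normalized table were Psma8, Psmb8, Psmb9 and Psmb11. The 43 genes were grouped by role into 7 alpha genes (Psma1 to Psma7), 7 beta genes (Psmb1 to Psmb7), 6 ATPases (Psmc1 to Psmc6), 11 non-ATPases of the cap, 3 genes for assembly factors of the cap (Psmd5, Psmd9 and Psmd10), 4 activators (Psme1 to Psme4) and 5 inducible or tissue-restricted core genes.

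The cells came from mouse forelimbs at E12.5 and were heterozygous for Hoxd11::GFP, an allele in which tau-GFP was knocked in, in frame with the coding part of Hoxd11, which inactivates that copy of the gene, on a mixed C57Bl6CBAF1 background. The autopod (the future hand) and the zeugopod (the future forearm) were dissected and dissociated, the cells with the strongest GFP signal were sorted, and single cells were captured on a Fluidigm C1 chip before SMARTer and Nextera XT library preparation. All cells carried the same allele, passed the same GFP gate and came from pooled forelimbs, and no label assigned a cell to an embryo. Each tissue was therefore 1 pooled sample, the spread given below is a spread over cells, and no test between tissues was possible.

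Of 225 captured cells, 199 were in the normalized table, namely 76 autopod cells (59 from run NXT0072 and 17 from run NXT0143) and, from the zeugopod, 58 cells of run NXT0142 and 65 cells of run NXT0143. The labels call these runs, and only NXT0143 held both tissues. Reads on genes ranged from 186271 to 9437447 per cell. A count of genes with at least 1 read gave 1801 to 6162 genes per cell. The autopod markers Hoxd13, Msx1 and Hoxa13 were present (at least 1 of them with 5 reads) in 93.4% of autopod and 4.88% of zeugopod cells, and the zeugopod markers Shox2 and Meox2 in 78% of zeugopod and 6.58% of autopod cells. In the 17 autopod cells of NXT0143 the autopod markers were found in 13 cells. No cell had the required 3 markers of muscle, epithelium or endothelium, 1 cell had 2 leukocyte markers and 1 cell had a blood marker. The blood call rested on Hba-x alone, since the other listed blood markers were not in the counts. Single markers reached 5 reads in more zeugopod cells, namely Epcam in 9, Pax7 in 15 and Csf1r in 17. In autopod cells these counts were 2, 1 and 3. Myod1, Myog and Krt5 had 0 reads.

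Most constitutive subunit genes were found in a large part of the cells. With detection set at 5 or more reads, 24 of the 39 genes were detected in at least 50% of the 199 cells, where 12.4% of all genes in the table reached that share. The median subunit gene was detected in 59.3% of cells and the median gene of the table in 19.1%. The core spliceosome genes, another set that every cell uses, had a median of 44% over 54 genes. For the cytosolic ribosomal protein genes it was 27.4% over 82 genes. The gap to the ribosomal genes depended on the cut. With 1 or more reads the medians were 66.3% for subunit, 54.5% for spliceosome and 59.5% for ribosomal genes. Loss of reads that map to more than 1 place was not tested for the spliceosome and ribosomal genes.

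Levels were read from the normalized value, a count scaled by a spike-in size factor and then corrected for gene length. They were averaged as log2(normalized value + 1). A gene with 0 reads does not reach 0 on this scale but a floor of 0.16 to 1.21, depending on its length. The median subunit gene had a mean level of 3.93 over the 199 cells and the median over all genes in the table was 1.43.

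Among the alpha genes, which form the outer rings of the core, Psma7 was highest. It was detected in 168 cells, and its normalized value ran from 0.325, the floor, over a median of 575 to 9096. Psma5 was lowest and was detected in 35 cells, with a median of 0.787, which is its floor, and a highest value of 90.5. Psma1, Psma6 and Psma3 were detected in 65.3, 67.3 and 64.8% of cells, and Psma4 in 39.7%.

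The beta genes spanned the widest range of levels. Psmb2, a non-catalytic beta subunit, had the highest mean level of all subunit genes, 7.82 ± 4.25 (SD over 199 cells), with a median normalized value of 571 and a highest value of 17488, and 155 cells had 5 reads. Psmb1 and Psmb6 were each detected in 163 cells, and Psmb6, which carries the caspase-like site, had a mean level of 6.54. Psmb5, which carries the chymotrypsin-like site of the constitutive core particle, had 5 reads in only 16 cells, or 8.04% (95% Clopper-Pearson interval 4.67 to 12.7%). Psmb3 had the lowest mean level, 1.47, and its highest value in any cell was 34.7. Psmb7, with the trypsin-like site, lay between them at 59.3% of cells and a mean level of 4.60. Such intervals for a share of cells treat the cells as independent draws and cover the sampling of cells only. Separately, the reads carry no molecular identifiers.

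The 6 ATPases were detected in nearly equal shares of cells, from 56.8% for Psmc1 to 66.3% for Psmc3. Their levels were less even. Psmc4 had the highest mean level at 6.13 and reached a normalized value of 48322 in 1 cell, and Psmc1 the lowest at 2.94 with a highest value of 251. Among the non-ATPases of the cap, Psmd7, a structural partner of the deubiquitinase, was detected in 137 cells with a mean level of 6.48. Psmd3, a scaffold of the lid, had the lowest mean level at 2.23 and was detected in 81 cells. Psmd14, the deubiquitinase itself, was detected in 47.2% of cells, and Psmd4, a ubiquitin receptor, in 62.3%. The assembly factors, which bind the ATPases during assembly and leave the finished cap, were detected in 51 cells (Psmd10), 70 cells (Psmd5) and 68 cells (Psmd9). All 3 thus lay below every ATPase in the share of cells.

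The activators differed most in the relation between detection and level. Psme4, which encodes the activator PA200, was the most widely detected subunit gene, in 189 of 199 cells, but its median normalized value was 11.6. Psme4 also had the longest transcript of the family in the table, 8.43 kb. Psme1 and Psme2 encode the paired subunits of the interferon-inducible activator PA28 and were detected in 77 and 81 cells. Psme3, the nuclear homologue of this activator, was detected in 48 cells.

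The inducible and tissue-restricted core genes were detected in few cells. Psmb8, which replaces Psmb5 in the immunoproteasome, had 0 reads in all 199 cells. By a limit of 3 counts this allows a share of cells with a read of up to 1.51%, which bounds detection and not the share of cells that express the gene, and the upper end of the 95% Clopper-Pearson interval was 1.84%. Psmb9, the inducible counterpart of Psmb6, had 5 reads in 4 cells, and 87.2% of its 1525 reads came from 1 cell. Psmb10, the inducible counterpart of Psmb7, was detected in 18 cells (9.05%, interval 5.45 to 13.9%), and 31.2% of its 14778 reads came from 1 cell. Psma8, the alpha gene of germ cells, was detected in 5 cells, and Psmb11, the beta gene of the thymic cortex, in 3 cells. Of 9 listed genes of antigen presentation and its control, which work beside the immunoproteasome, 4 were in the normalized table and 1, B2m, passed the filter used for the tissue comparison. Tap1 and Tap2, which transport peptides, had 5 reads in 1 cell and 0 cells, and H2-K1 and H2-D1 were each detected in 3 autopod and 5 zeugopod cells. B2m, the light chain that these molecules share, was detected in 40 autopod and 60 zeugopod cells.

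**Figure D1:**
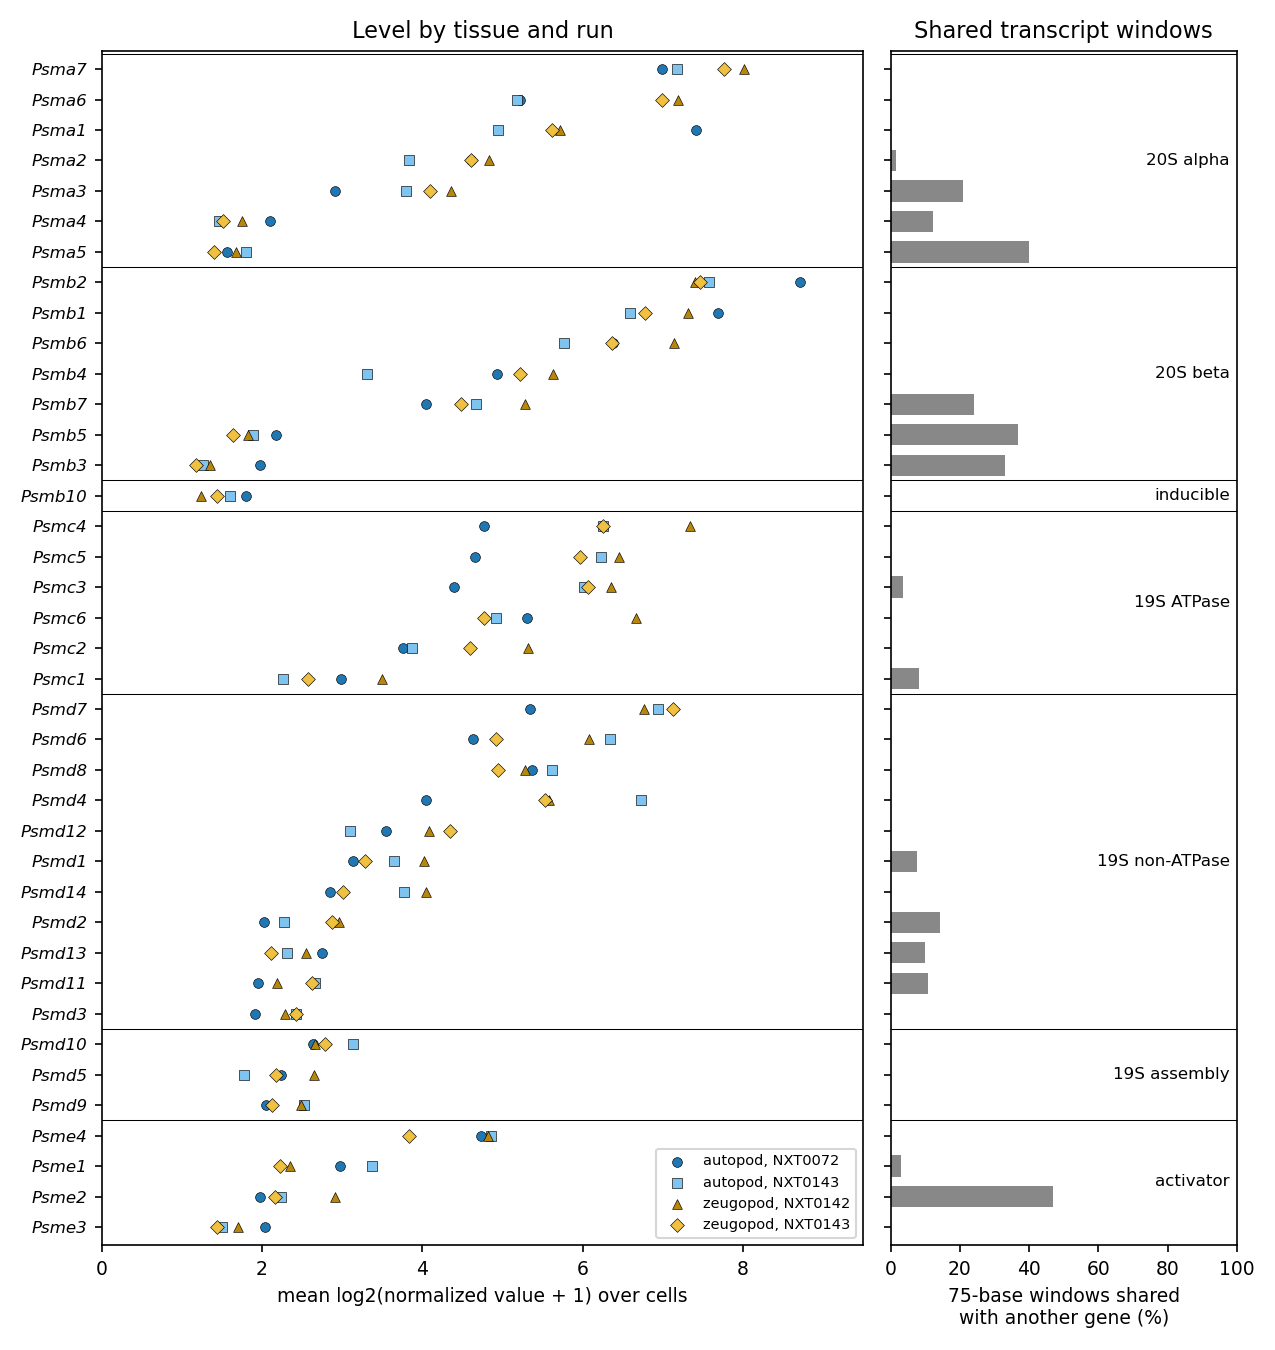
Left, mean log2(normalized value + 1) over the cells of each tissue and run for the 39 subunit genes, ordered by role and level. Right, the percent of each gene's 75-base transcript windows that occur letter for letter in a transcript of another gene, where Psma5, Psmb3, Psmb5 and Psme2 have the longest bars and low levels.

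The low values of Psma5, Psmb3 and Psmb5 stood out because these subunits are parts of the constitutive core. Counts were made from uniquely mapped reads, so each gene was checked for sequence that occurs elsewhere. All 75-base windows of its protein-coding transcripts (GENCODE M21, GRCm38) were compared with the transcripts of all other genes, including pseudogenes, which are copies that arose by duplication or from reverse-transcribed mRNA. No window was shared for 24 subunit genes, whose median mean level was 5.22. Some windows, but under 30%, were shared for 11 genes, with a median of 2.94. For Psmb7, Psmc3, Psmd1 and Psmd13 of these, the main partner overlaps exons at the same place in the genome. Such windows need not lose uniquely mapped reads, so this class is mixed. At least 30% were shared for 4 genes, Psma5 (39.8%), Psmb3 (33.1%), Psmb5 (36.8%) and Psme2 (46.9%), with a median of 1.72. Across the 39 genes the shared percentage and the mean level had a Spearman rho of -0.497. This is given as a description, because the genes share the same libraries and windows of overlapping genes enter it as well. The 10 genes with a window shared with a pseudogene had a median mean level of 2.44. Psmb10 and Psme3 had low levels and no shared window, and Psma3 had 20.9% shared windows and a mean level of 3.79. The part of shared sequence in the low counts was not tested.

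The longest repeated stretches inside 1 coding exon of these 4 genes are printed here to show how far a read of 75 bases falls within them. Capitals mark the bases that are identical in the other gene, and lower-case letters are adjoining bases of the same coding exon. The stretch in Psma5 lies in exon 3 at chr3:108265066-108265192 on the plus strand, and the pseudogene Gm8394 repeats it. The stretch in Psmb3 lies in exon 2 at chr11:97703865-97703972 on the plus strand, with the pseudogene AC114990.1 as its copy. In Psmb5 there are 154 such bases in exon 3 at chr14:54614328-54614481 on the minus strand, repeated by the pseudogene Gm3375. The one in Psme2 has 87 bases in exon 4 at chr14:55589619-55589705 on the minus strand and is shared with the protein-coding gene Psme2b.
Psma5: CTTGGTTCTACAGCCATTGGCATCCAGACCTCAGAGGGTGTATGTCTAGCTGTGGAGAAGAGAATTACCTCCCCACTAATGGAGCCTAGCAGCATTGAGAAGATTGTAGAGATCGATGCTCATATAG
Psmb3: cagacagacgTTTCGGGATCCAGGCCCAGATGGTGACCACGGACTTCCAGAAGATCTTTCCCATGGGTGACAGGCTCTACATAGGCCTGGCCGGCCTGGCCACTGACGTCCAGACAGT
Psmb5: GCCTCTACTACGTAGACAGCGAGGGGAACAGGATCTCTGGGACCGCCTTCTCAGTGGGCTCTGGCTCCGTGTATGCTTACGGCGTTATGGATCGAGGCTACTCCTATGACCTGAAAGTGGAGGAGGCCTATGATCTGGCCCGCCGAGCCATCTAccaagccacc
Psme2: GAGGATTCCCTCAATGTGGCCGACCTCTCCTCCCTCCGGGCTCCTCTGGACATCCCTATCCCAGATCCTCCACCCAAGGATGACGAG

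Psme2b had 1849 reads in the retained cells against 5980 for Psme2. Other limits of the counting concern overlaps and lengths. Exons of Psma4, Psma5, Psmb7, Psmc3, Psmd1, Psmd3, Psmd9, Psmd13 and Psme1 overlap exons of a gene on the opposite strand, and without a strand in the counting the reads of both cannot be told apart. For Psmb7 the partner was Nek6, with 178569 reads against 41035 for Psmb7. The length used for Psmb1 was 1.04 kb, where all annotated exons of the gene span 4.60 kb, and that for Psma2 was 0.953 kb against 3.67 kb. Psmb7 (1.22 against 3.42 kb), Psmc6 (1.58 against 3.50 kb) and Psmd8 (1.55 against 3.06 kb) also had a shorter length. Levels of different genes depend on the length used, and its effect on them was not tested.

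How many subunit genes a cell showed followed the number of genes detected in it. A cell had a median of 21 subunit genes with 5 reads, from 3 in the zeugopod cell with the fewest genes to 35 in the autopod cell with the most. Genes detected were counted here with at least 1 read and without the subunit genes. Over the 76 autopod cells, subunit genes detected and genes detected had a Spearman rho of 0.948, with 0.947 in NXT0072 and 0.940 in NXT0143. Over the zeugopod cells rho was 0.779, with 0.799 in NXT0142 and 0.779 in NXT0143. Both counts of a cell come from the same library and depth, so these values describe shared detection. After every cell was thinned to 500000 reads, which left out 4 autopod and 4 zeugopod cells, rho was 0.909 and 0.756. For the spliceosome genes the same relation gave 0.870 and 0.812 without thinning, and for the ribosomal genes 0.614 and 0.657.

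The increase was seen in most members. In the 35 cells with fewer than 3000 genes the median subunit gene was detected in 25.7% of cells and 6 of the 39 genes in at least 50%. The corresponding values were 50.6% and 21 genes in the 77 cells with 3000 to 4000 genes, 70% and 29 genes in the 60 cells with 4000 to 5000 genes, and 85.2% and 34 genes in the 27 cells above. Psmd1, a scaffold of the cap, rose from 28.6 to 85.2% of cells from the first to the last class. Psme4 was already at 91.4% in the first and was at 100% in the last. Psmb10 stayed low, with 8.57% in the first and 7.41% in the last. The normalized value of each of the 39 genes had a rho above 0 with genes detected in both tissues, and the medians over genes were 0.521 (autopod) and 0.353 (zeugopod).

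**Figure D2:**
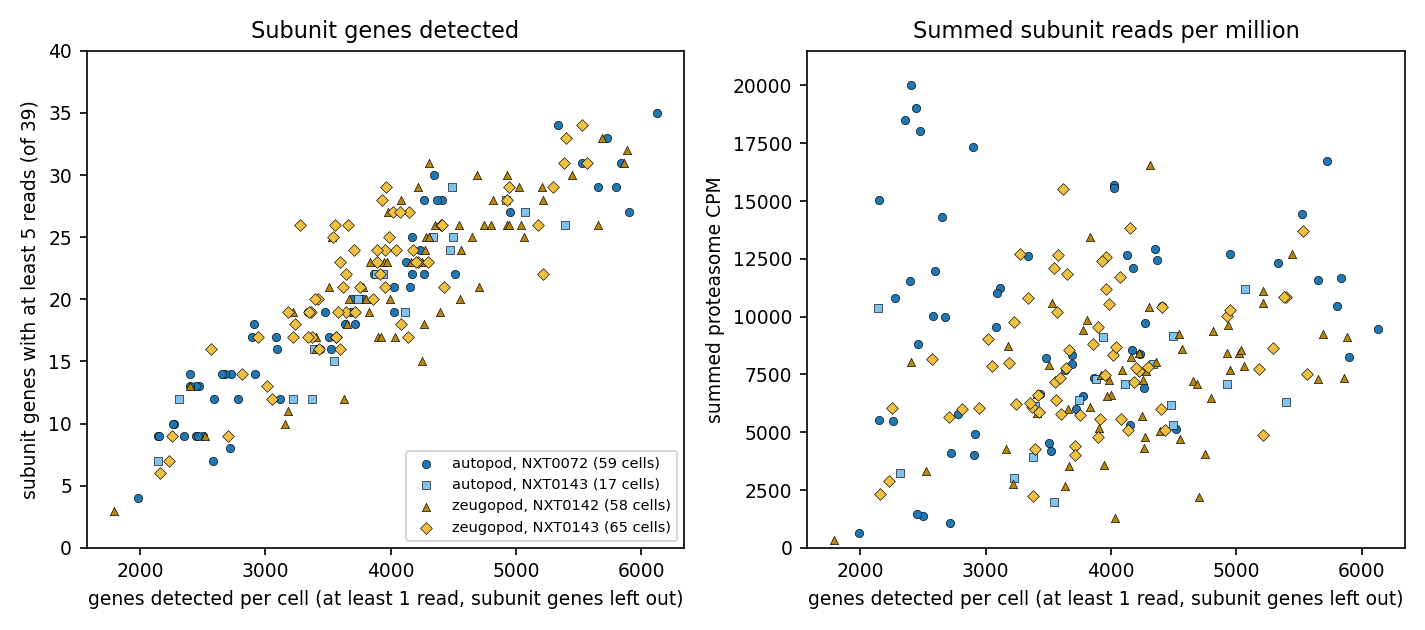
Each point is 1 of 199 cells, colored by tissue and run, with genes detected (at least 1 read, subunit genes left out) on the x axis, and the subunit genes with at least 5 reads (left) or their summed CPM (right) on the y axis. The left panel rises from 3 to 35 subunit genes, whereas the summed CPM on the right has a weak relation to genes detected, with a Spearman rho of 0.133 in autopod and 0.258 in zeugopod cells.

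The share of the library taken by the family was related only weakly to the number of genes. Summed over the 39 genes, subunit reads per 1000000 reads on genes (CPM) had a median of 8467 in autopod cells (651 to 20018) and 7660 in zeugopod cells (336 to 16573). The Spearman correlation with genes detected was weak, 0.133 for autopod and 0.258 for zeugopod cells. Over the 4 classes of genes detected, the median summed CPM of zeugopod cells was 5830, 7306, 7689 and 8658, a rise in each step, and that of autopod cells was 9998, 7308, 8851 and 11372, with no steady rise. By run, the autopod medians were 9719 (NXT0072) and 6402 (NXT0143), and the zeugopod medians 7407 (NXT0142) and 7797 (NXT0143). The ranges of the 4 sets overlapped.

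Few subunit genes made up most of this sum in any 1 cell. The gene with the most reads held a median of 26.5% of the summed CPM, from 12.2 to 94.2%, and the 3 top genes (median over cells, range 1 to 6) were enough to reach 50% of it. Which gene was on top differed between cells. Psma7 led in 28 cells, Psma1 in 22 cells, and 23 of the 39 genes led in at least 1 cell. The share of the top gene was 34.8% in autopod and 23.2% in zeugopod cells (medians), and the autopod cells also had fewer genes detected, with a median of 3660 against 3961.

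The balance between cap and core was different in 1 of the 4 sets. The ratio of the summed CPM of the 17 cap genes (6 ATPases and 11 non-ATPases) to that of the 14 core genes had a median of 0.704 in the autopod cells of NXT0072. It was 1.62 in autopod cells of NXT0143, and 1.54 and 1.51 in zeugopod cells of NXT0142 and NXT0143. Cap exceeded core in 39 of 76 autopod cells and in 78% of the zeugopod cells. The low ratios in NXT0072 lay mostly in cells with few genes. In its 23 cells with fewer than 3000 genes the median ratio was 0.147 and 4 cells were above 1, and in its 36 other cells it was 1.39 with 21 above 1. Zeugopod cells with fewer than 3000 genes had a median of 2.28, but only 10 such cells were available, and in the autopod cells of NXT0143 there were 2.

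The cells behind the low ratios can be read gene by gene. In the 23 NXT0072 cells with fewer than 3000 genes, Psma1 and Psmb2 were each detected in 16 cells, and they led the sum in 6 and 4 cells. Among the cap genes Psmc6 was detected in 14 cells and Psmd8 in 10 cells. The other 5 ATPases were detected in 4 to 8 cells each, namely Psmc3 and Psmc4 in 4, Psmc5 in 5, Psmc2 in 6 and Psmc1 in 8. In the 36 cells of this run with more genes, the same 6 ATPases were detected in 22 to 25 cells. Core genes were found both above and below the ATPases in these 23 cells. Psmb1, Psmb4 and Psmb6 were each detected in 14 cells, Psma7 in 12 and Psmb7 in 7, but Psma3 and Psma6 in 6, Psma2 and Psmb3 in 5, Psma4 and Psmb5 in 3 and Psma5 in 0 cells. Over cells, the summed CPM of core and cap had a weak rho, -0.047 for autopod and 0.248 for zeugopod cells.

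**Figure D3:**
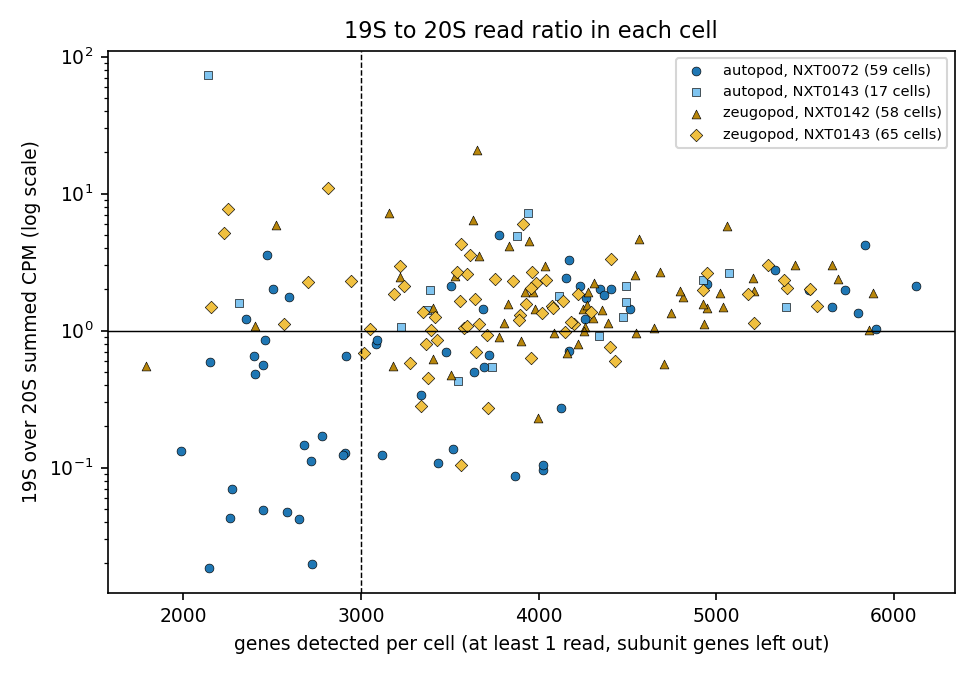
Ratio of the summed CPM of 17 cap (19S) genes to 14 core (20S) genes in each cell, on a log scale, against genes detected, colored by tissue and run. The dashed line marks 3000 genes and the solid line a ratio of 1, and the lower left field is filled by autopod cells of NXT0072.

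The comparison of autopod with zeugopod was made on 35 subunit genes with 5 reads in 25% or more of autopod or of zeugopod cells. Psma5, Psmb5, Psmb10 and Psme3 did not pass. Over all cells the subunit genes were lower in the autopod, with a median difference of mean log2 levels of -0.44, where the median over the 4898 genes passing the same filter was -0.12. Differences above 0 were found for 10 of the 35 genes, 28.6%, with 43.5% of all genes. A difference of at least 1 upward was reached by 2 genes (Psmb2 and Psma1), or 5.71%, and by 6.06% of all genes. A difference of at least 1 downward was reached by 7 genes, or 20.0%, and by 13.4% of all genes. These were Psma6, Psma3 and Psmd7 and the ATPases Psmc2, Psmc3, Psmc4 and Psmc5.

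On the log2(CPM + 1) scale the median was -0.70 over all cells (all genes -0.29), with 1 gene up (5.41% of all genes) and 11 down (19.8% of all genes). In cells thinned to 500000 reads this scale gave 1 up (5.68% of all genes) and 11 down (20.5% of all genes), and a pseudocount of 10 on the normalized scale gave 0 up (1.92% of all genes) and 2 down (5.29% of all genes).

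The difference was taken within and between runs. Within NXT0143 the median over the subunit genes was 0.01 (all genes 0.18), with 4 genes up (Psmd6, Psmd4, Psme1 and Psme4, 18.4% of all genes) and 3 genes down (Psmb4, Psma6 and Psmd12, 9.21% of all genes), and it was -0.32 on the CPM scale (all genes -0.02). Between the autopod cells of NXT0072 and the zeugopod cells of NXT0142 it was -0.70 (all genes -0.34), with 2 genes up (6.64% of all genes) and 13 down (24.3% of all genes), and -0.75 on the CPM scale (all genes -0.41). Tissue and run cannot be told apart in this second comparison, and size factors were centered within a batch, so a level difference between runs is not anchored to the spike-ins. The 2 comparisons had the same direction for 18 of the 35 genes, 51.4%, and for 51.4% of all genes.

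The number of genes detected moved with this difference as well. In cells with at least 3000 genes (51 autopod cells, and 55 and 58 zeugopod cells of the 2 runs), a limit chosen after these values were seen, the median over the 35 genes was 0.34 (all genes 0.31), with 6 genes up by at least 1 (18.5% of all genes) and 0 down (6.88% of all genes). Within NXT0143 the median over the subunit genes in such cells was -0.04, and between NXT0072 and NXT0142 it was 0.26. No value over all genes is given for these 2 comparisons in such cells, so both medians stand without a background. The sign of the median over all cells thus turned when 35 cells with few genes were left out, of which 25 were autopod cells, and a positive median was seen in the run comparison in which tissue and run cannot be told apart but not within NXT0143. The part of cell quality, cell state or tissue in this was not tested.

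All 6 ATPases were lower in the autopod over all cells, with a median of -1.17. The median was -0.02 within NXT0143, with 3 above and 3 below 0, and -1.68 between NXT0072 and NXT0142. In cells with at least 3000 genes it was -0.17 over all cells. Psmc4 had the lowest difference among them. It was detected in 52.6% of autopod cells, with a median normalized value of 5.97 and a highest of 48322, and in 71.5% of zeugopod cells, with a median of 366 and a highest of 5304. Its difference was -1.66 over all cells, 0.003 within NXT0143, -2.57 between NXT0072 and NXT0142, and -0.12 in cells with at least 3000 genes. Psmc3 and Psmc2 were lower by 1.45 and 1.15 on the log2 scale over all cells. Within NXT0143 their differences were -0.05 and -0.72, the former close to 0, and between NXT0072 and NXT0142 they were -1.96 and -1.56. In cells with at least 3000 genes their differences were -0.36 and -0.24.

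Psma6, an alpha subunit, was lower in the autopod in each of these comparisons, but by less in the cells with more genes. It was detected in 41 of 76 autopod cells (53.9%, interval 42.1 to 65.5%) and in 93 zeugopod cells (75.6%, interval 67 to 82.9%). Its normalized value had a median of 7.24 and a highest value of 10569 in the autopod, and a median of 455 and a highest value of 3677 in the zeugopod, so that the cell with the highest value was an autopod cell and the groups overlapped. The mean level was 5.21 ± 4.68 (SD, 76 cells) in the autopod and 7.09 ± 3.95 (SD over 58 and 65 cells) in the zeugopod, a difference of -1.88. It was -1.81 within NXT0143, -1.97 between NXT0072 and NXT0142, and -0.88 in cells with at least 3000 genes. Psma3 and Psmd7 had differences of -1.11 and -1.26 over all cells but only -0.29 and -0.20 within NXT0143. In cells with at least 3000 genes Psma3 was at -0.58 and Psmd7 at 0.04.

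In the other direction, the 5 genes that were above 0 in both run comparisons were Psmb2 (1.02), Psme1 (0.79), Psmb3 (0.56), Psmd13 (0.34) and Psmd8 (0.32). Psmb2 had a higher median normalized value in autopod cells, 908 against 434, its difference was 0.11 within NXT0143 and 1.30 between NXT0072 and NXT0142, and it was detected in 80.3% of autopod and 76.4% of zeugopod cells. On the CPM scale Psmb2 was at -0.27 within NXT0143. In cells with at least 3000 genes its normalized difference was 1.55, but it was -0.28 within NXT0143. Psme1 was detected in 40.8% of autopod and 37.4% of zeugopod cells, with differences of 1.16 and 0.63 in the 2 run comparisons. In cells with at least 3000 genes Psme1 was at 1.76, and at 1.33 within NXT0143. Psma1 was the largest over all cells at 1.19, but it was -0.68 within NXT0143 and 1.69 between NXT0072 and NXT0142. Among the 35 genes, Psmb2 alone was up by at least 1 and above 0 in both run comparisons (5.25% of all genes). On the CPM scale 0 genes met this rule (4.45% of all genes). On the normalized scale 5 genes were down by at least 1 and below 0 in both (9% of all genes), namely Psma6, Psmc3, Psmd7, Psmc2 and Psma3, and on the CPM scale 9 genes (15% of all genes).

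**Figure D4:**
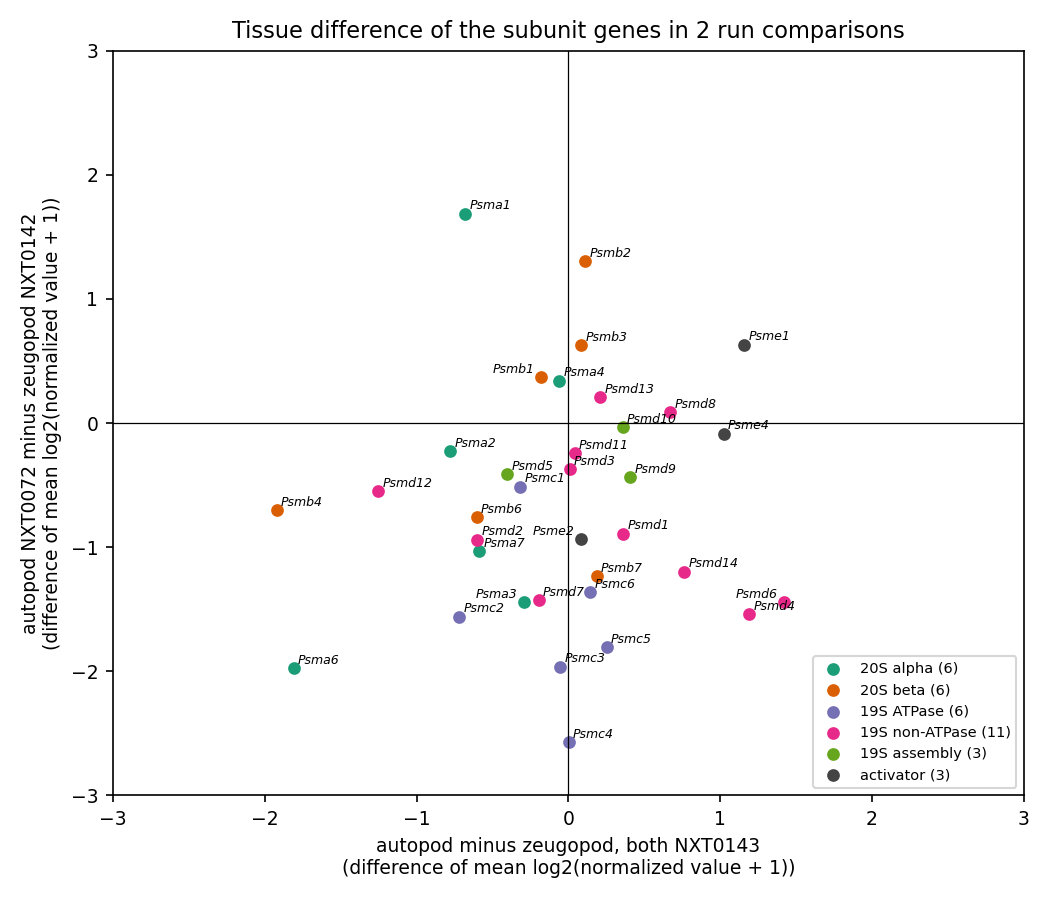
Each point is 1 of 35 subunit genes, colored by role, with the autopod minus zeugopod difference of mean log2(normalized value + 1) within NXT0143 on the x axis and between NXT0072 autopod and NXT0142 zeugopod cells on the y axis. Psma6 lies far to the lower left, Psmc4 at 0.003 on the x axis and -2.57 on the y axis, and Psme1 in the upper right.

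Other genes of the pathway were compared in the same way, first over all cells. Of 15 listed genes for assembly and regulation, 14 were in the table and 11 passed the filter, with a median difference of -0.34 (all genes -0.12), and 0 of them were past a difference of 1 in either direction (6.06% of all genes up and 13.4% down). Pomp, the maturation factor of the core, was detected in 64.5% of autopod and 81.3% of zeugopod cells with a difference of -0.52, and Nfe2l1, the transcription factor that raises proteasome gene expression when the protease is inhibited, had -0.34. Shfm1 (Sem1), the smallest subunit of the lid, is not covered by the naming rule. It was detected in 97.4% of autopod and 90.2% of zeugopod cells. Its mean levels were 9.25 and 8.35, above every subunit gene that the rule took. Within NXT0143 the differences were 0.07 for Pomp, 0.99 for Nfe2l1 and -0.23 for Shfm1. Between NXT0072 and NXT0142 they were -0.81, -0.72 and 1.12. The run comparisons thus differed in direction for each of these genes.

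Coordination between subunit genes was described by Spearman rho over cells for all 595 pairs of the 35 genes. The median was 0.274 over the 76 autopod cells, where all pairs of genes had 0.136, and 0.166 over the zeugopod cells, where all pairs had 0.074. The values for pairs of spliceosome genes were 0.212 and 0.146, and for pairs of ribosomal genes 0.252 and 0.197. Genes detected was then taken out as a partial rank correlation. The median over the subunit pairs fell to 0.040 and 0.045 (all pairs 0.015 and 0.011). Pairs of spliceosome genes then had 0.043 and 0.040, close to the subunit pairs. Pairs of ribosomal genes had 0.099 and 0.084, above the subunit pairs in both tissues. In these sparse counts such values are too weak to be read as coordination, and the pairs share genes, cells and depth. Pairs within the cap had a median of 0.229 (mean of the 4 tissue and run sets), pairs within the core 0.213, pairs between cap and core 0.223 and the remaining pairs 0.141.

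A single pair stood out from the others. Psmc5 and Psmc2, both ATPases of the same ring, had the highest mean rho over the 4 sets, 0.595. It was 0.719 (NXT0072) and 0.582 (NXT0143) in the autopod, and 0.505 (NXT0142) and 0.576 (NXT0143) in the zeugopod. Other pairs reached 0.810 in the autopod cells of NXT0143 and 0.615 in the zeugopod cells of NXT0142. Given genes detected, the mean for Psmc5 and Psmc2 over the 4 sets was 0.480. Of the 199 cells, 15 had 5 reads of Psmc5 only, 15 of Psmc2 only and 55 of neither, and all others had both. They lie on different chromosomes, Psmc5 at chr11:106256154-106263120 and Psmc2 at chr5:21785283-21803787 (GRCm38), and shared no 75-base window with each other or with another gene.

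The next pairs were Psma2 and Psma7 (mean rho 0.440), Psmb6 and Psmc4 (0.440), Psmb6 and Psma2 (0.415) and Psma7 and Psmd7 (0.413). Given genes detected they had 0.252, 0.241, 0.255 and 0.181. Outside the rule for named pairs, and chosen after its value was seen, the pair of assembly factors Psmd5 and Psmd10 had the next highest mean given genes detected after Psmc5 and Psmc2, 0.350. Its lowest value was -0.023 (autopod, NXT0072) and its highest 0.660 (autopod, NXT0143). At the low end were Psmb6 and Psmb4 (mean rho -0.041), Psmb1 and Psmd10 (-0.039), Psmd5 and Psma4 (-0.035), Psme1 and Psmb7 (-0.034) and Psmd5 and Psmb7 (-0.027). In each of these 5 pairs the lowest of the 4 values came from the 17 autopod cells of NXT0143.

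**Figure D5:**
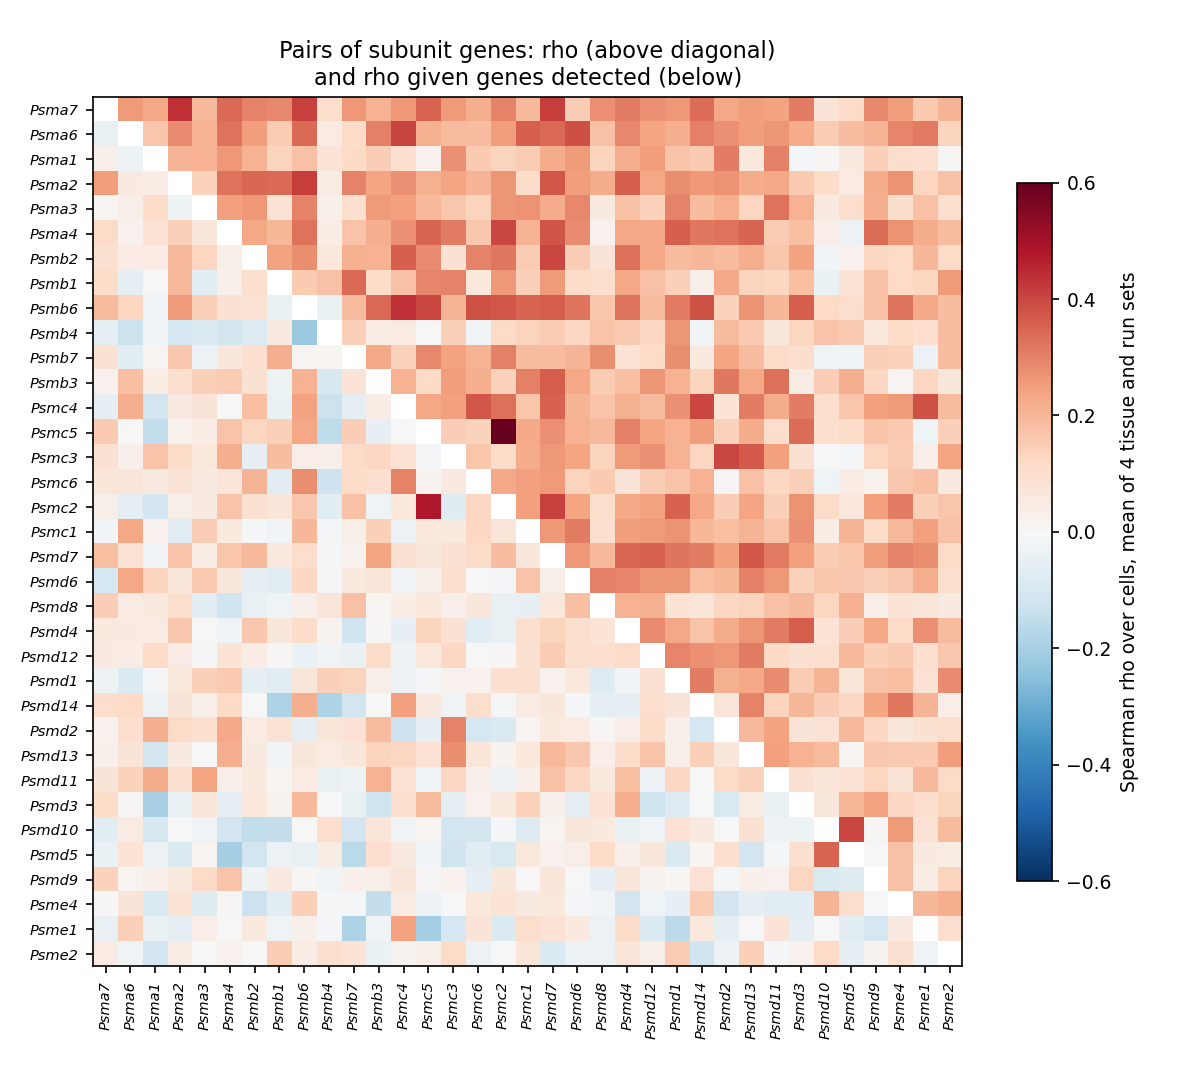
Spearman rho over cells for each pair of 35 subunit genes, as the mean of the 4 tissue and run sets, above the diagonal, and the same given genes detected below it, on a color scale from -0.6 to 0.6. The pair Psmc5 and Psmc2 has the highest value on both sides, at 0.595 and 0.480.

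Each subunit gene was also set against the summed CPM of the other subunit genes. Given genes detected, Psmd7 had the highest mean partial rho, 0.230, and Psmd4 the lowest, -0.177. The 17 autopod cells of NXT0143 gave the most extreme value for both, 0.487 and -0.479. In the other sets Psmd7 had 0.032 to 0.241 and Psmd4 -0.130 to -0.018, so this order leans on the smallest set. Over the 4863 genes outside the family, the partial rho with the family's summed CPM had a median of 0.008, and 90% of the genes were below 0.122. The 10 most similar genes were Snrpa1 (0.302), Jmjd6 (0.292), Nhp2 (0.291), Hypk (0.278), Katna1 (0.273), Cdca7 (0.272), Glrx3 (0.266), Anp32b (0.266), Uqcrq (0.265) and Fam96b (0.264), as means of 4 values over 17 to 65 cells. This order rests on the smallest set. The 17 autopod cells of NXT0143 gave the highest of the 4 values for 9 of the 10 genes, and without them the means were 0.099 to 0.253 and 0 of the 10 genes were among the first 10. Snrpa1 then had 0.158 and Hypk 0.099, which was below the 0.122 under which 90% of genes lay without that set.

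Promoter sequences (RefSeq, GRCm38.p6, 250 bases before the start) were available for 33 of the 39 genes and were searched on both strands for 2 motifs known from proteasome genes. The core of the antioxidant response element, to which the Nfe2l1 family binds, written TGACNNNGC, occurred in 5 of 33 promoters (15.2%), those of Psmb5, Psmb6, Psmc6, Psmd12 and Psmd9, and in 11.5% of 27025 genes. The CCAAT box occurred in 12 of 33 (36.4%), and in 37.5% of all genes. A match is a description of these letters and says nothing about binding in these cells. The median mean level was 3.93 with the first motif (5 genes, 1.87 to 6.54) and 3.41 without it (28 genes, 1.47 to 7.56). The median share of cells with 5 reads went the other way, 49.7% with this motif and 56.5% without it. For the CCAAT box the median level was 4.14 with it and 2.60 without it, and the shares were 62.1 and 52.3%. These medians leave out Psmb1, Psmb2, Psmb7, Psmc3, Psmd3 and Psmd7, which had no promoter sequence. Psmb2 had the highest mean level of all subunit genes. A link between motif and level was not tested. A stretch of 30 bases is printed for Psmb6, with the first motif in capitals. Another is printed for Psmc2, of the pair with the highest mean rho, with the CCAAT box in capitals. They lie at chr11:70525327-70525356 and chr5:21785235-21785264, both on the plus strand.
Psmb6: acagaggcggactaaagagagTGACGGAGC
Psmc2: cacggcctcgcgCCAATgcgcgcggccgcc

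Cycling cells differed in the number of subunit genes in the same way as in genes detected. Zeugopod cells with at least 3 of the cell cycle markers Mki67, Top2a, Ccnb1 and Cdk1 (23 cells) had a median of 28 subunit genes and 5021 genes detected, and the other 100 cells 21 subunit genes and 3875 genes detected. In the autopod the medians were 22 subunit genes in 18 cycling cells and 17 in the other 58. The median summed CPM with and without these markers was 7845 and 7419 in the zeugopod. By run it was 8049 and 7249 in NXT0142, and 7717 and 7799 in NXT0143. In the autopod it was 8900 and 9998 in NXT0072, and 9120 (2 cells) and 6308 in NXT0143. The runs thus differed in direction in both tissues. The marker split itself depends on detection.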

How the data were processed

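Single-cell RNA-seq was analysed from 2 tissues of 1 design. The authors mapped 75-base reads uniquely with Bowtie2 in local mode to mm10, and the deposited counts are whole reads per Ensembl gene (GRCm38). The deposited normalized table is a signal: spike-in size factors, centered within batches by the authors, were followed by a correction for gene length. Multiplied by gene length, 99.956% of its values were whole within 0.001. The authors retained 199 of 225 cells, and 2 retained cells had no more than 2000 genes, the stated minimum.

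Cells were grouped by tissue and run from the labels. A gene was detected at 5 reads, levels were means of log2(normalized value + 1), and CPM was per 1000000 reads on genes. Genes compared between tissues had 5 reads in at least 25% of cells of either tissue, and a difference of 1 (log2) was counted. Spearman correlations are descriptions over cells of 1 library type. Reads per cell (186271 to 9437447) set the precision, and intervals are exact 95% Clopper-Pearson intervals. No doublet caller was run on these C1 captures. The code was tested on simulated data. Alternatives were thinning to 500000 reads (seed 42), CPM, pseudocounts of 0.1 and 10, a filter of 50%, and runs taken separately.

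Named genes were the highest and lowest of each role, the 5 largest tissue differences each way with 1 direction in both run comparisons, all inducible or restricted genes, the 5 highest and lowest pairs, the 10 most similar other genes and 3 pathway lists. Members and lists were chosen with earlier results of these data known. The summary of 1 pathway list is not reported here. Spike-in rows were not used here. Python 3.11.15, numpy 2.4.6, pandas 2.3.3, scipy 1.17.1 and matplotlib 3.10.9 were used.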

Additional observations from a re-analysis of the deposited data

Results flagged for a closer look

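The 26 captured cells that were not retained enter no comparison above. Of these, 9 cells had at least 1 subunit gene with 5 reads, which is a signal in data outside the main measurement. The median over the 26 cells was 0 subunit genes and the highest count was 11. They had a median of 339 genes and at most 2350.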

How the results depend on the processing

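Of 75 alternatives, 53 were counted as leaving the value unchanged. The yardstick was the spread over cells or features, or the spread between runs or sets for correlations with genes detected or with the summed CPM. Counts of genes past a difference of 1 had no such spread. Subunit genes detected against genes detected gave a rho of 0.909 (autopod) and 0.756 (zeugopod) in thinned cells, 0.940 in NXT0143 autopod cells and 0.799 in NXT0142 zeugopod cells, against 0.948 and 0.779. The median pair in the autopod was 0.135 on CPM, 0.111 on CPM of thinned cells and 0.040 given genes detected, against 0.274. In the zeugopod it was 0.066 on CPM of thinned cells and 0.045 given genes detected, against 0.166. The median tissue difference of -0.44 reversed to 0.0098 in NXT0143 alone and to 0.34 in cells with at least 3000 genes, an alternative chosen after seeing the data. Of 35 genes, 2 were higher by at least 1. This count was 0 with a pseudocount of 10, 1 on CPM, 1 on CPM of thinned cells, 4 in NXT0143 alone and 6 in cells with at least 3000 genes. The 7 lower genes became 2, 11, 11, 3 and 0 under the same alternatives and 13 between NXT0072 and NXT0142. With a pseudocount of 0.1 there were 10 lower genes (19.3% of all genes), a rise that was still counted among the 53. For the 10 most similar genes the alternative without the NXT0143 autopod cells was also chosen after seeing the data. Each of these genes was counted among the 53, because the spread between sets includes the set left out. Hypk, for example, went from 0.278 to 0.099 with a spread of 0.360. As 0 of the 10 genes stayed among the first 10, this count does not show a stable order. The causes were not tested. No paired analysis was possible because the numbers shared between tissues only name cells, and no result comes from a test. No replicate was left out, since each tissue is 1 pooled sample. Shallow cells limit the detection of low subunit genes.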
